A study of Mus musculus with 12 samples.

Results

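The genes of the NMDA receptor were examined in cortex of mice that were wild type, heterozygous or knockout for miR-137, a microRNA abundant in neurons. The members are Grin1, Grin2a, Grin2b, Grin2c, Grin2d, Grin3a and Grin3b, taken by exact gene name from the 3 deposited tables, so that 7 of 23951 rows per table are described. The rule uses names and no measured value, though the family was picked with earlier results of these data known. Cortex of C57BL/6 mice came from wild type animals (WT), from carriers of 1 mutant allele labelled miR-137/+ (Het) and from animals labelled miR-137 KO (KO), with 4 libraries per genotype and 12 in all. How old the mice were, their sex and how the allele was made could not be taken from the labels. Each table holds 1 value per genotype, the authors' RPKM (a read density normalised to transcript length and library size), so no SD can be attached to any value and library depth is unknown. The labels do not say whether each library stands for its own animal, so the authors' p-values measure only the spread between libraries and that spread may be technical. The words rose and fell are kept for genes with a deposited adjusted p under 0.05. Folds on the log2 scale are differences of log2(RPKM + 1), which understate the change of weakly expressed genes.

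NMDA receptors are glutamate-gated cation channels that admit calcium when glutamate is bound and depolarization has lifted the block of the pore by magnesium. Every receptor needs GluN1, the product of Grin1, which binds the coagonists glycine and D-serine. The GluN2 products of Grin2a to Grin2d bind glutamate and set the kinetics of the channel. In forebrain GluN2B prevails early in life and GluN2A joins it as synapses mature, while GluN2C is best known from cerebellar granule cells and GluN2D from interneurons and early development. The GluN3 products of Grin3a and Grin3b bind glycine and give receptors that pass less calcium, and GluN3A is most abundant in the early postnatal brain.

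The microRNA removed in these mice and its possible sites in the members' 3' UTRs are shown because Grin2a is among the published targets of miR-137. The mature sequence is from RefSeq (GRCm38.p6, chr3:118433901-118433923, plus strand), with the seed at bases 2 to 8 in capitals.
miR-137-3p: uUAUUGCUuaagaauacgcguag

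A site was counted where the longest annotated 3' UTR of a gene (GENCODE M21) held, on the transcript strand, AGCAATAA (pairing with bases 2 to 8 and followed by A), AGCAATA without that A, or GCAATAA without the first base, each site being counted once in the longest form. Of the 7 members, Grin2a had 2 such matches, Grin2b had 1 and the other 5 had 0. The matches are printed with the matched letters in capitals, including the A that follows the paired bases where it is part of the match. All 3 lie in 3' UTRs on the minus strand of GRCm38, a build other than the mm9 that the submitters' processing notes name. The Grin2a matches are at chr16:9577540-9577546 and chr16:9577415-9577421, at positions 281 and 406 of a 3' UTR of 9929 nt. The Grin2b match is at chr6:135725124-135725130, position 6968 of 18865 nt.
Grin2a position 281: gactgggtatggcgGCAATAAtggtgcat
Grin2a position 406: tctaatacagaataAGCAATAtggtatgc
Grin2b position 6968: tacaaacaccgaacAGCAATAtttcaatg

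None of the 3 was the longest form. Long 3' UTRs hold such letters often: of 105 expressed genes with a 3' UTR between 0.8 and 1.25 times as long as that of Grin2a, 59% held at least 1 match, and their median was 1. For Grin2b only 6 expressed genes were of like length, and 83.3% of them held a match. Grin3a had no match in 3615 nt, a length at which 31.2% of 1475 expressed genes had one. Over 12472 expressed genes with an annotated 3' UTR the share was 16.1%. In the shortest annotated 3' UTR of each gene, an alternative chosen after seeing the data, Grin2a (86 nt) and Grin2b (684 nt) had no match. A match is a description of the letters and not evidence of binding.

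In WT cortex Grin1 was by far the highest of the 7. Its authors' value was 122 RPKM, above 97.2% of all rows, and it made up 72.8% of the summed RPKM of the family. Grin3a followed at 12.3 RPKM, then Grin2b at 9.604, Grin2a at 9.32, Grin2c at 8.34 and Grin2d at 6.07. Grin3b, whose product is best known from motor neurons, stood at 0.0870 RPKM. With pooled libraries, the neighbours in this order cannot be separated by any spread.

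The order among the others differed between genotypes. In Het Grin2c was second at 9.29 RPKM, ahead of Grin3a at 8.47, and in KO Grin3a led this group at 15.7 RPKM with Grin2c next at 10.1. Levels are comparable between genes only as far as the transcript length behind each RPKM holds, and the gene models the authors used are not stated in the labels. For Grin2b annotated coding transcripts of GENCODE M21 reach from 2461 to 24060 nt, and for Grin2a from 5023 to 14634 nt. Ratios of 1 gene between genotypes do not depend on that length as long as the same one was used for each genotype.

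**Figure D1:**
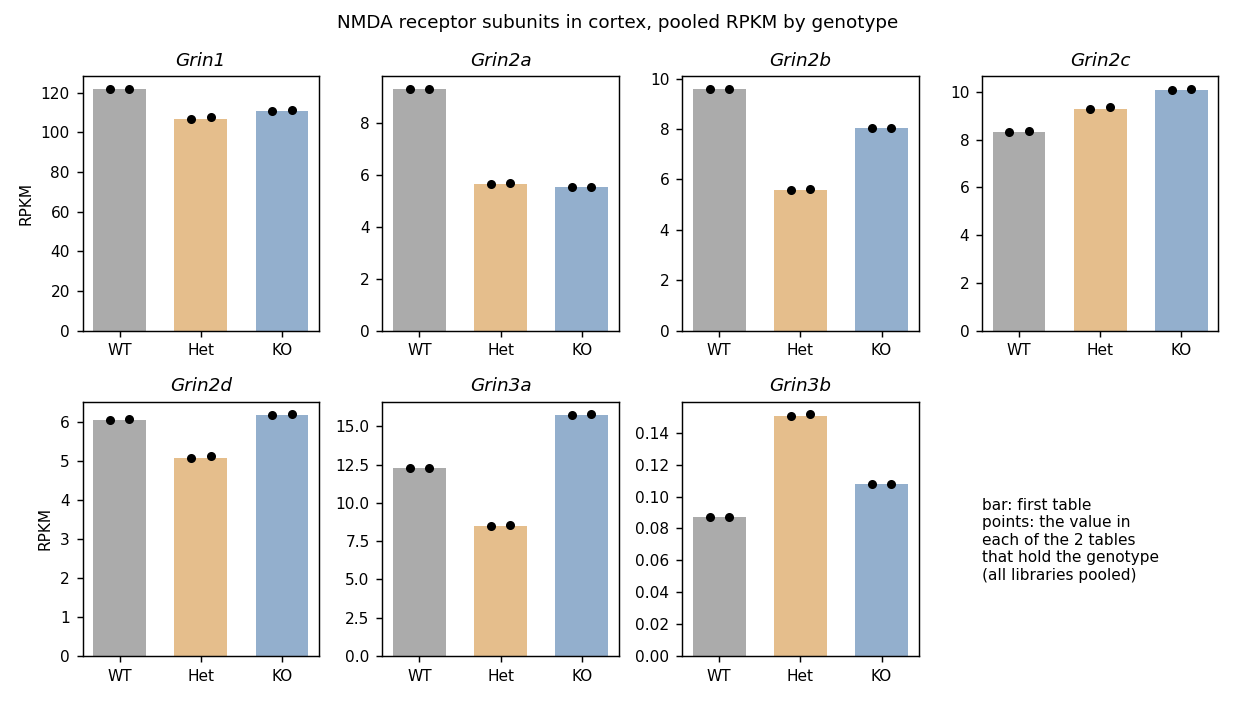
Authors' RPKM of each NMDA receptor gene by genotype (vertical axes in RPKM, scaled per gene and starting at 0), with bars for the value in 1 table, points for the value in each of the 2 tables that hold a genotype and no error bars, since libraries are pooled. Grin2a is lower in both mutant genotypes, Grin2b is lowest in Het, and Grin3a is lowest in Het at 8.47 RPKM and highest in KO at 15.7 RPKM.

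The obligatory subunit did not pass the test in any comparison. Grin1 stood at 122 RPKM in WT, 107 in Het and 111 in KO. Its log2 folds against WT were -0.19 in Het (adjusted p 0.536 in the authors' deposited table) and -0.14 in KO (adjusted p 0.592). The fold of KO against Het was 0.05 (adjusted p 0.988 there). Both mutant values lie below the WT value, by an amount the authors' test did not separate from the spread of the libraries. The opposite-strand gene Grin1os shares 1307 exon bases with Grin1 in GENCODE M21, which is 13.5% of the exon bases of Grin1. The TruSeq v2 kit named in the labels does not mark strand, so reads from the shared bases cannot be told apart. The same holds for Grin3b, which shares 1059 bases (32.1% of its exon bases) with the opposite-strand gene Tmem259, and for Grin2d, which shares 643 (9.66%) with Gm45441. Grin2c shared 1.81% of its exon bases in this way, Grin2b shared under 1% with any 1 gene, and Grin2a and Grin3a shared none. Grin1os itself stood at 27.6 RPKM in WT, 23.6 in Het and 20.9 in KO, with adjusted p of 0.893 and 0.5997 against WT in the authors' deposited tables.

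Heterozygous cortex had less Grin2a, Grin2b and Grin3a RNA than WT cortex. Grin2a fell by 39.3%, Grin2b fell by 41.7% and Grin3a fell by 30.9%, and no member rose. Of the 7 members 6 were tested by the authors, the exception being Grin3b, and 3 of the 6 fell. Over all 14159 genes tested in this comparison 9.00% were called, 5.06% as lower and 3.95% as higher. The median log2 fold of the 6 tested members was -0.35, beside 0.01 over all genes tested. In bulk tissue fewer cells of a type and less RNA per cell cannot be told apart.

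Grin2a, which encodes the GluN2A subunit of mature synapses, went from 9.32 RPKM in WT to 5.66 in Het, a log2 fold of -0.63 (p 5e-05, adjusted p 0.00135 in the authors' deposited table). Grin2b, which encodes GluN2B, the chief glutamate-binding subunit of young forebrain, went from 9.604 to 5.60 RPKM, a log2 fold of -0.69 with the same adjusted p of 0.00135. Grin3a, whose product GluN3A limits calcium entry, went from 12.3 to 8.47 RPKM, a log2 fold of -0.48, again with an adjusted p of 0.00135. That p is the smallest the table holds, so it does not rank the 3 genes.

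The remaining tested members did not pass. Grin2d had 5.09 RPKM in Het and 6.07 in WT, with a log2 fold of -0.22 and, in the authors' deposited table, an adjusted p of 0.326. Grin2c was the single tested member with a higher value in Het, at 9.29 RPKM against 8.34 (log2 fold 0.14, adjusted p 0.592). Grin3b stood at 0.151 RPKM in Het and was not tested.

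Knockout cortex differed from WT in Grin2a, which fell, and in Grin3a, which rose. Grin2a fell by 40.8%, and Grin3a was 1.28-fold higher in KO than in WT. Of 6 tested members 1 rose and 1 fell. Over all 14059 genes tested 14.4% were called, 6.72% as higher and 7.68% as lower. The median log2 fold of the 6 was -0.06, beside 0.01 over all genes tested.

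Grin2a had 5.52 RPKM in KO and 9.33 in WT in that table, a log2 fold of -0.66 (p 5e-05, adjusted p 0.000987 in the authors' deposited table). Grin3a stood at 15.7 against 12.3 RPKM, a log2 fold of 0.34 (p 0.0045, adjusted p 0.0355). This call rests on how p-values are adjusted: with the 3 tables adjusted together its adjusted p was 0.0543. Grin2b, at 8.02 against 9.61 RPKM, had a p of 0.0418 before adjustment and an adjusted p of 0.167 in the authors' deposited table, with a log2 fold of -0.23. Grin2c was on the other side of 0, at 10.1 against 8.35 RPKM, with a log2 fold of 0.25 and an adjusted p of 0.162. Grin2d was at 6.19 against 6.07 RPKM (log2 fold 0.02, adjusted p 0.940), and the untested Grin3b was at 0.108 RPKM.

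Set directly against each other, KO and Het cortex differed in Grin2b and Grin3a. Both were higher in KO, Grin3a 1.85-fold and Grin2b 1.43-fold. Of 6 tested members 2 rose and 0 fell, where 1.87% of the 14062 genes tested were called, 0.917% as higher and 0.953% as lower. The median log2 fold of the 6 members was 0.17, beside 0.00 over all genes tested.

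Grin3a stood at 15.8 RPKM in KO and 8.53 in Het in that table, a log2 fold of 0.82 (p 5e-05, adjusted p 0.00517 in the authors' deposited table). Grin2b stood at 8.06 and 5.63 RPKM, a log2 fold of 0.45 with the same adjusted p. Grin2a did not differ by the authors' test, at 5.55 RPKM in KO and 5.69 in Het (log2 fold -0.03, adjusted p 0.994). Grin2d had a log2 fold of 0.24 (p 0.0656, adjusted p 0.561) and Grin2c one of 0.11 (adjusted p 0.923). The 3 comparisons use the same libraries pairwise, so their values are set side by side and not counted as separate evidence: Grin2a was low in both mutant genotypes, Grin2b was low in Het and lay between Het and WT in KO, and Grin3a lay below WT in Het and above WT in KO.

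**Figure D2:**
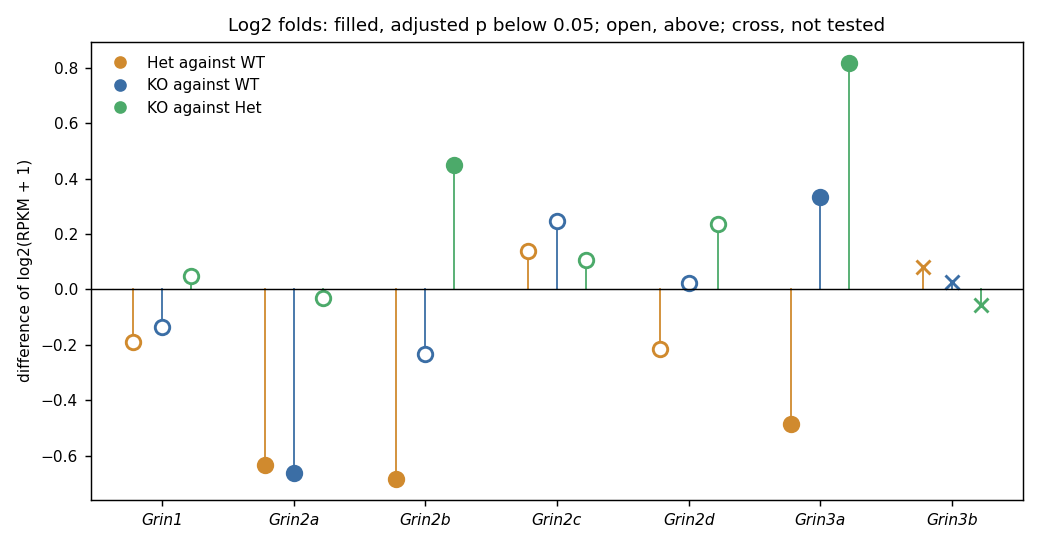
Difference of log2(RPKM + 1) (vertical axis) for each NMDA receptor gene (horizontal axis) in the 3 comparisons, with filled points for an adjusted p below 0.05 in the authors' deposited tables, open points for genes above it and crosses for the untested Grin3b. The Grin3a points lie at -0.48 for Het against WT, 0.34 for KO against WT and 0.82 for KO against Het.

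Among the glutamate-binding subunits, Grin2a and Grin2b held smaller shares and Grin2c a larger share in both mutant genotypes than in WT. The RPKM of the 4 Grin2 genes summed to 33.3 in WT, 25.6 in Het and 29.8 in KO. Grin2a gave 28.0% of that sum in WT, 22.1% in Het and 18.5% in KO. Grin2b gave 28.8%, 21.8% and 26.9% in the same order. Grin2c, which itself passed no test, gave 25.0% in WT, 36.3% in Het and 33.9% in KO, so that it was the largest Grin2 share in both mutant genotypes. Grin2d gave 18.2%, 19.9% and 20.7%. These shares are descriptions of pooled values, and no test of a share can be made from them.

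The ratio of Grin2a to Grin2b, often followed as a sign of synaptic maturation, was 0.971 in WT, 1.01 in Het and 0.688 in KO. The KO ratio was the lowest of the 3, with Grin2a at 5.52 RPKM and Grin2b at 8.02. The summed Grin2 RPKM was 0.273 of the Grin1 value in WT, 0.240 in Het and 0.269 in KO. Grin3a relative to the Grin2 sum stood at 0.368 in WT, 0.331 in Het and 0.527 in KO, and it was 1.96 times the Grin2b value in KO, where it was 1.28 times in WT. Over all 7 genes the RPKM summed to 168 in WT, 141 in Het and 157 in KO.

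**Figure D3:**
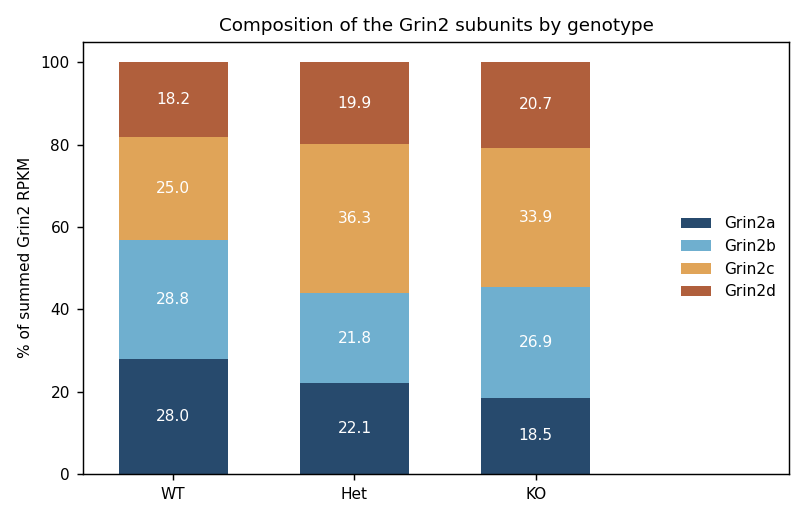
Share of the summed RPKM of the 4 Grin2 genes (vertical axis, %) held by each gene in WT, Het and KO, from the authors' pooled values and without error bars. Grin2a shrinks from 28.0% in WT to 18.5% in KO, and Grin2c is the largest share in Het and KO.

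The 3 members that changed are also those with the longest transcripts. The longest annotated transcripts of Grin2b, Grin2a and Grin3a have 24060, 14634 and 7491 nt, and those of the other 4 have between 3283 and 5431 nt. Among expressed genes with an annotated length, the longest decile began at 6860 nt in the Het table. The median log2 fold in that decile was -0.10 in Het and -0.09 in KO against WT, beside 0.15 and 0.19 in the shortest decile. Of the tested genes in the longest decile 11.2% fell and 3.13% rose in Het, beside 5.06% and 3.95% of all genes tested. In KO 14.8% fell and 4.34% rose, beside 7.68% and 6.72%. Between KO and Het the longest decile had a median of 0.00, with 0.649% lower and 1.54% higher in KO, beside 0.953% and 0.917%. The part of transcript length in the folds of the 3 subunits was not tested.

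Markers of other cells and regions moved with genotype in the same libraries. All 18 striatal projection neuron markers rose in Het and in KO, and their summed RPKM went from 120 in WT to 605 and 628. The 12 choroid plexus markers summed to 2230 RPKM in WT, 344 in Het and 118 in KO, with 11 lower in each. Of 14 immature neuron markers 9 rose in Het and 10 in KO, from a sum of 2309 RPKM to 2799 and 3402. Thalamic markers fell in 4 of 9 members in Het and 6 of 9 in KO, with sums of 155, 123 and 121 RPKM. Most of each sum came from Calb2, which is also on the interneuron list, at 90.7 RPKM in WT, 65.3 in Het and 71.0 in KO. No marker of these 4 lists was at 0 in any genotype. Among all genes tested 3.95% rose and 5.06% fell in Het, and 6.72% rose and 7.68% fell in KO. Between KO and Het, 4 of 9 measured choroid plexus markers were lower in KO (median log2 fold -0.58, sums of 118 and 345 RPKM). Thalamic markers were lower in 2 and higher in 1 of 9, the higher one being Slc17a6, with sums of 122 and 124 RPKM. Of 14 immature neuron markers 1 was higher in KO, with sums of 3419 and 2818 RPKM, and the striatal sums were 629 and 608 RPKM. Between KO and Het 0.917% of all genes tested were higher in KO and 0.953% lower. The part of these markers in the values of the subunits was not tested.

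The marker counts that follow stand beside 3.95% higher and 5.06% lower of all genes tested in Het. In KO these shares were 6.72% and 7.68%. The 12 cortical excitatory markers were all at 1 RPKM or above, with 2 higher and 1 lower in Het and 1 higher and 1 lower in KO. Their sums were 2334, 2200 and 2096 RPKM in WT, Het and KO. Of 15 pan-neuronal markers 1 was called, as higher in KO, with sums of 4985, 4885 and 4958 RPKM. Interneuron markers numbered 1 higher and 2 lower of 12 in each, with sums of 1090, 1024 and 1079 RPKM. The peptide gene Sst, of interneurons in which Grin3a is known to be abundant, stood at 330 RPKM in WT, 250 in Het (adjusted p 0.00841 in the authors' deposited table) and 338 in KO (adjusted p 0.919). The Sst fold of KO against Het was 0.43 with an adjusted p of 0.0513 in the authors' deposited table. Of the other interneuron markers Npy rose in Het, from 88.7 to 129.5 RPKM (adjusted p 0.00135 there). Calb2 fell from 90.7 to 65.3 RPKM in Het (adjusted p 0.00135) and to 71.0 in KO (adjusted p 0.0294). In KO Reln rose from 14.1 to 18.5 RPKM (adjusted p 0.0146) and Pvalb fell from 10.9 to 6.58 RPKM (adjusted p 0.00831). The part of interneurons in the Grin3a values was not tested. Oligodendrocyte lineage markers summed to 1240 RPKM in WT, 1697 in Het (4 of 12 higher) and 1038 in KO (2 higher and 2 lower). In KO against Het 5 of the 12 were lower, as were 0.953% of all genes tested. Astrocyte markers summed to 1467, 1305 and 1310 RPKM, with 1 of 12 higher and 2 lower in Het and 1 lower in KO. Microglial markers summed to 508, 389 and 381 RPKM, with 3 of 12 higher and 5 lower in each. Hippocampal markers summed to 229.8, 214 and 197 RPKM, with 3 of 10 higher and 2 lower in Het and 2 lower in KO. Of 6 measured cerebellar granule cell markers 1 was higher and 2 were lower in Het and 2 were lower in KO. Gabra6, Barhl1, En2, Fat2 and Cbln3 were under 1 RPKM in each genotype and are outside these counts. Of the called genes, Neurod1 is also counted among the hippocampal markers and Zic1 among the thalamic ones. Gabra6, a defining gene of the cerebellar granule cells where Grin2c is known to be strong, stood at 0.0167 RPKM in WT, was listed at 0 in Het and stood at 0.00507 in KO.

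Genes whose pair of folds against WT lay nearest to a changed member were sought over the 3 genotypes among 9625 genes of at least 5 RPKM in WT, by the distance between the 2 folds. For Grin2a they were Wdr92, Sepp1 and Cebpd, at distances of 0.01, 0.03 and 0.04 on the log2 scale. The selenoprotein P gene Sepp1, for example, had 174, 113 and 112 RPKM in WT, Het and KO. For Grin2b they were the long noncoding RNA gene Meg3, the short Mir546 row and the phosphodiesterase gene Pde1a, at 0.03, 0.03 and 0.04. Meg3 had 374, 229 and 323 RPKM. For Grin3a they were Rspo2, Slc17a6 and Gabra3, at 0.09, 0.11 and 0.14. Slc17a6, the vesicular glutamate transporter of many subcortical neurons, had 12.6, 9.10 and 15.0 RPKM. Within a distance of 0.1 there were 20 genes for Grin2a, 10 for Grin2b and 1 for Grin3a, so the Grin3a pattern had the fewest like it. Such likeness over 3 pooled values is a description.

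Of the 11 other ionotropic glutamate receptors, of the AMPA, kainate and delta families, 2 fell in Het and 1 in KO. Among all genes tested 5.06% fell in Het and 7.68% in KO. The median log2 folds of the 11 were -0.21 and -0.13. Gria2, whose edited AMPA receptor subunit keeps calcium out of the channel, fell to 117 RPKM in Het from 155 (adjusted p 0.0417 in the authors' deposited table). In KO it fell to 107 RPKM (adjusted p 0.00179). Gria1, the other main AMPA subunit of cortex, stood at 192, 153 and 157 RPKM in WT, Het and KO, with adjusted p of 0.121 and 0.158 against WT. The kainate subunit gene Grik1 fell from 8.68 to 5.06 RPKM in Het (adjusted p 0.00135). It was higher in KO than in Het, with 7.78 and 5.09 RPKM and an adjusted p of 0.0242.

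Scaffold and trafficking genes of the receptor changed in both directions. Of 25 members 2 rose and 4 fell in Het, and 2 rose and 5 fell in KO, with median log2 folds of -0.0062 and -0.0049. Among all genes tested 3.95% rose and 5.06% fell in Het, and 6.72% rose and 7.68% fell in KO. Dlg4, which encodes PSD-95, the main scaffold bound by GluN2 tails, stood at 230 RPKM in WT, 226 in Het and 232 in KO (adjusted p 0.964 and 0.972 in the authors' deposited tables). Actn2, an actin-binding alpha-actinin that also binds GluN1 and GluN2B, rose from 6.56 to 11.2 RPKM in Het (adjusted p 0.00135) and to 13.3 in KO (adjusted p 0.000987). The postsynaptic scaffold gene Shank1 fell to 26.6 from 37.4 RPKM in Het (adjusted p 0.00135), and was higher in KO than in Het at 37.8 RPKM, for which the authors' deposited table gives an adjusted p of 0.0123. Neto1, an auxiliary protein of NMDA and kainate receptors, rose from 26.1 to 36.6 RPKM in Het (adjusted p 0.0176) and was lower in KO than in Het at 19.4 RPKM, for which the authors' deposited table gives an adjusted p of 0.00517. Against WT it fell in KO, to 19.3 RPKM (adjusted p 0.0381). Apba1, an adaptor of the motor complex that carries GluN2B, rose from 44.8 to 57.6 RPKM in KO (adjusted p 0.0278) and was higher in KO than in Het, which had 40.8 RPKM (adjusted p 0.0154). Dlgap2, a PSD-95-binding scaffold gene, and Pacsin1, a gene of endocytosis that acts on GluN3A, fell in KO to 6.71 from 10.97 RPKM and to 40.95 from 63.1 RPKM, both with an adjusted p of 0.000987. The other called members were Shank2, Dlgap1 and Pacsin1, which fell in Het (0.0159, 0.0176 and 0.0263 as adjusted p in the authors' deposited table), and Shank2 and Dlgap1, which fell in KO (adjusted p 0.0297 and 0.0482).

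Of 31 genes for kinases and signalling proteins around the receptor 4 fell and 0 rose in Het, and 8 fell and 1 rose in KO. The medians of the list were -0.02 and -0.01. Beside these counts, 5.06% of all genes tested fell and 3.95% rose in Het, and 7.68% fell and 6.72% rose in KO. With an adjusted p under 0.01 the 8 became 5. The calmodulin-dependent kinase genes Camk2a and Camk2b, whose products bind GluN2B, did not pass. Camk2a stood at 846, 691 and 650 RPKM in WT, Het and KO (adjusted p 0.423 and 0.243 in the authors' deposited tables), and Camk2b at 350, 346 and 347 RPKM. Rasgrf1, an exchange factor that couples NMDA receptors to Ras, fell to 54.8 RPKM in Het (adjusted p 0.00135) and 52.7 in KO (adjusted p 0.000987) from 78.6. Its relative Rasgrf2 fell from 11.6 RPKM to 8.83 in Het (adjusted p 0.010) and to 8.44 in KO (adjusted p 0.00386). Camk2d, another kinase of the Camk2 family, fell to 15.5 RPKM in Het (adjusted p 0.00135) and 15.3 in KO (adjusted p 0.000987) from 21.8. Ptk2b, a calcium-activated tyrosine kinase, fell to 81.9 from 128 RPKM in KO (adjusted p 0.000987), and the protein kinase C gene Prkca to 25.4 from 34.4 RPKM (adjusted p 0.00323). The member that rose in KO was Ptpn5, at 69.9 against 52.2 RPKM (adjusted p 0.00386). It encodes STEP, the striatal-enriched protein tyrosine phosphatase, which acts on GluN2B. The striatal projection neuron markers also rose in KO, and their part in the Ptpn5 value was not tested.

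Of 16 measured genes for glycine and D-serine synthesis, breakdown and transport 1 fell in Het, and in KO 1 rose and 1 fell. Among all genes tested 3.95% rose and 5.06% fell in Het, and 6.72% rose and 7.68% fell in KO. The D-serine-forming enzyme gene Srr stood at 46.8, 44.5 and 40.3 RPKM in WT, Het and KO (0.866 and 0.332 as adjusted p in the authors' deposited tables). Slc6a20a, a transporter gene of proline and glycine, fell from 6.15 to 3.68 RPKM in Het (adjusted p 0.0148) and to 2.97 in KO (adjusted p 0.000987). The medians of the list were 0.09 in Het and 0.09 in KO. Gcsh, a glycine cleavage gene, rose to 56.2 from 44.0 RPKM in KO (adjusted p 0.0403). The kynurenine pathway, which yields agonists and antagonists of the receptor, had 6 of 12 genes above 1 RPKM. Of these 2 rose in Het and 1 in KO. Ido1, an enzyme at its entry, rose from 0.117 RPKM in WT to 2.25 in Het and 2.11 in KO (adjusted p 0.00764 and 0.00560 in the authors' deposited tables), and Tdo2 rose from 4.05 to 6.85 RPKM in Het (adjusted p 0.0128). Tdo2 was lower in KO than in Het, at 4.05 RPKM (adjusted p 0.0412).

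Among 9 genes of glutamate uptake, vesicular loading and zinc loading 2 fell in Het and 1 in KO, where 5.06% and 7.68% of all genes tested fell. Slc17a6 fell from 12.6 to 9.10 RPKM in Het (adjusted p 0.00434 in the authors' deposited table), and KO exceeded Het with 15.1 and 9.16 RPKM (adjusted p 0.00517). Slc1a6, a glutamate transporter gene, fell from 7.63 to 5.28 RPKM in Het (adjusted p 0.0481). Slc17a7, the vesicular glutamate transporter of cortical excitatory neurons, fell from 575 to 393 RPKM in KO (adjusted p 0.000987). Of 18 transcripts known to respond to NMDA receptor activity 8 rose in Het and 7 in KO, and 0 fell in either. Their median log2 folds were 0.32 and 0.16. Among all genes tested 3.95% rose in Het and 6.72% in KO. With an adjusted p under 0.01, 5 rose in Het and 3 in KO. Npas4, an activity-dependent transcription factor gene, rose from 3.39 to 6.31 RPKM in Het (adjusted p 0.00135) and to 5.87 in KO (adjusted p 0.000987). Egr1 and Arc, an early transcription factor and a synaptic protein gene, rose from 22.4 to 34.9 and from 7.48 to 11.9 RPKM in Het (adjusted p 0.00135 for both). Dusp1, a phosphatase gene, rose from 13.9 to 20.3 RPKM in Het (adjusted p 0.00244) and to 20.03 in KO (adjusted p 0.00560). Nr4a2, an orphan nuclear receptor gene, rose from 10.8 to 18.0 RPKM in KO (adjusted p 0.000987). In the direct comparison it had 18.1 RPKM in KO and 8.22 in Het (adjusted p 0.00517 in the authors' deposited table).

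**Figure D4:**
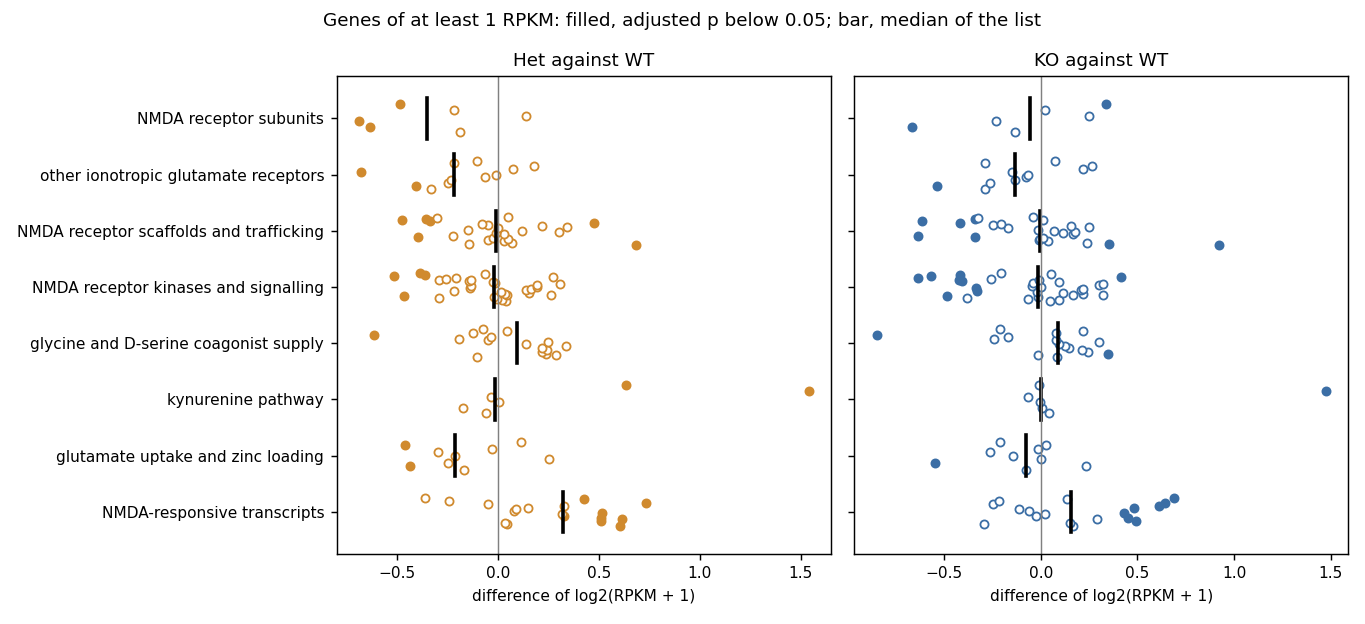
Difference of log2(RPKM + 1) of each gene of at least 1 RPKM in the NMDA receptor family and 7 related lists, for Het against WT (left) and KO against WT (right), with filled points for an adjusted p below 0.05 in the authors' deposited tables and a black bar at the median of each list. The subunits' bar is at -0.35 in Het and -0.06 in KO, and that of NMDA-responsive transcripts is at 0.32 and 0.16.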

How the data were processed

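Libraries were made from mouse cortex with the TruSeq RNA v2 kit, per the labels' protocols. Cuffdiff 2.2.1, TopHat2 2.0.13, CASAVA 1.4 and mm9 are listed in the submitters' processing notes without their roles, and the annotation is not given there. The authors deposited 3 pairwise tables of 23951 rows with 1 RPKM column per genotype, per the file headers, and no values per library. The p-values and q-values are those the authors deposited. A recomputed Benjamini-Hochberg adjustment returned the q-values when genes listed with a p-value of 1 were left out, and such genes count as untested. The deposited log2 fold column, which holds infinite and unreadable entries, was not used. 0 columns lacked a genotype.

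No test of expression was run here: calls are the authors' q below 0.05. Log2 folds use a pseudocount of 1 RPKM, and list members count as measured from 1 RPKM in either genotype. The members' values for 1 genotype differed between tables by at most 0.693%.

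Named genes are the 7 subunits, up to 4 called genes per list and comparison by smallest q and then largest fold, 6 further genes fixed by name (Dlg4, Camk2a, Camk2b, Srr, Gria1, Gria2), and the 3 genes nearest to each changed subunit. Ptpn5, Rasgrf2 in KO, Tmem259, Gm45441, Gabra6 and Grin1os were added after their values were seen. So were the interneuron markers Sst, Npy, Calb2, Reln and Pvalb, and Egr1 and Arc in KO. The cerebellar markers under 1 RPKM and the shared Neurod1 and Zic1 were also named after their values were seen. The same holds for the further called scaffold genes in KO (Shank2, Dlgap1, Neto1) and Het (Dlgap1, Pacsin1). A called gene of the signalling list is not reported here. Members and lists were chosen with earlier results of these data known. 3' UTRs, lengths and exon overlaps came from GENCODE M21 on GRCm38 by gene name, and 90.5% of expressed genes had a 3' UTR. The adjustment and the site search were tested on simulated data. Tables were computed in Python 3.11.15 (pandas 2.3.3, numpy 2.4.6, scipy 1.17.1) and plots drawn in matplotlib 3.10.9.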

Additional observations from a re-analysis of the deposited data

Results flagged for a closer look

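The values in Het and KO cortex differed in 2 of the 6 tested subunits, by the authors' direct test of KO against Het. In that comparison 1.87% of the 14062 genes tested were called. Grin3a had a log2 difference of 0.82 and Grin2b one of 0.45 between KO and Het (adjusted p 0.00517 for both in the authors' deposited table). For Grin3a the values against WT lay on opposite sides, at -0.48 in Het and 0.34 in KO. For Grin2b they lay on the same side, at -0.69 and -0.23.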

How the results depend on the processing

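The 3 calls in Het stayed with a minimum of 1 or 5 RPKM, adjustment over the 3 tables and a threshold of 0.01. The 21 log2 folds of the subunits kept their sign with pseudocounts of 0.1 and 0.01, recentring, and values from the other tables. These runs could hardly change a sign. A pseudocount cannot reverse a fold, and the other tables pool the same libraries. The medians subtracted in recentring were 0.0094 for Het against WT, 0.0066 for KO against WT and -0.0009 for KO against Het. Requiring an absolute log2 fold of at least 0.5 left 2 of the 3 calls in Het, without Grin3a at -0.48. In KO the 2 calls became 1 with a threshold of 0.01, with adjustment over the 3 tables together or with a minimum absolute log2 fold of 0.5, Grin3a being the one lost (adjusted p 0.0543 over the 3 tables). KO against Het went from 2 calls to 1 with that minimum fold, Grin2b being lost. The losses of Grin3a in Het and of Grin2b in KO against Het rest on the pseudocount of 1 RPKM. With pseudocounts of 0.1 and 0.01 the Grin3a fold in Het was -0.5272 and -0.5319. The Grin2b fold of KO against Het was then 0.5085 and 0.5153. Shares and ratios moved by under 5% with values from the other table. List medians near 0 changed sign: scaffolds in KO became 0.0026 and cortical excitatory markers in KO -0.0127 with a minimum of 5 RPKM. Coagonist genes between KO and Het became 0.0364 with that minimum, and cerebellar markers between KO and Het 0.0081 with none. The kynurenine median in KO became -0.0299 with 5 RPKM, -0.0406 with no minimum, -0.0007 with a pseudocount of 0.1 and -0.0065 recentred. Counts called in lists moved by over 1.5 times in 35 of 114 cases with a threshold of 0.01, among them the NMDA-responsive transcripts that rose (8 to 5 in Het, 7 to 3 in KO). Causes were not tested. No paired analysis was possible because the tables hold 1 pooled value per genotype, and for the same reason no library could be left out. Depth is unknown.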
